A study of Sus scrofa with 12 samples.

Results

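The miRNA described here is miR-126, chosen as every listed entry whose name is miR-126 with or without the pig prefix, which gave 4 of the 1452 miRNA entries. Small RNA from whole testis was sequenced in 2 pig breeds, Hezuo (HZ) and Landrace (LC), with 3 libraries in each of 4 groups of boars: HZ at 30 days (Ha), HZ at 120 days (Hb), LC at 30 days (La) and LC at 120 days (Lb). The boars carried no transgene or treatment, RNA is said to have been taken from pooled samples, and p-values therefore measure the spread between libraries, which may be technical. Levels are the authors' TPM (a tag count scaled by a library total), and the 12 libraries held 6520197 to 16874633 counts on listed miRNAs. Hb replicate 2 stood apart, with a TMM factor (the scaling that edgeR applies to a library) of 0.598 in Hb vs. Lb against 0.979 to 1.21 in the other libraries of that fit. Several results are therefore also given without it.

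In mammals miR-126 is made from an intron of EGFL7, a gene for a protein secreted by endothelial cells, and it is known as the miRNA most typical of the cells lining blood vessels. The 3p strand is known to repress SPRED1 and PIK3R2, inhibitors of signalling from the VEGF receptor, while the 5p strand is known to repress DLK1. In the testis, the blood vessels run between the seminiferous tubules. RefSeq's annotation of Sscrofa11.1 lists MIR126 on an unplaced sequence from 1108695 to 1108767, which is 73 bases, and EGFL7 on an unplaced sequence from 1107088 to 1119033. The table used does not name these sequences and gives bounds without exons.

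The mature sequences are shown because the results turn on the difference between the strands and on the letters at the 3′ end. All are written 5′ to 3′ as deposited, with T for U. Capitals mark the seed (bases 2 to 8) in the pig-named entries, and the letters after the shared start in the other entries.
ssc-miR-126-3p: tCGTACCGtgagtaataatgcg
miR-126-y: tcgtaccgtgagtaataatgcAA
ssc-miR-126-5p: cATTATTActtttggtacgcg
miR-126-x: cattattacttttggtacgcgAA
The entries miR-126-y and miR-126-x carry names without a species, share the first 21 letters with the pig-named 3p and 5p sequence, respectively, and end in AA. Both keep the seed of their strand. No other listed miRNA shared either seed or lay within 3 edits of a pig-named entry. The methods rank miRNAs of the class named exist above those of the class named known when a tag is annotated, but how far a tag could differ from the listed letters is not given in the sources used here.

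Both strands were abundant and were counted in all 12 libraries. The mean over the libraries was 6713 TPM for ssc-miR-126-3p, the 29th of the 1452 entries, and 5149 TPM for ssc-miR-126-5p, the 35th. Ranks within a library ran from 21 to 38 for the 3p strand and from 27 to 40 for the 5p strand. The AA-ending entries were far lower, with means of 177 TPM for miR-126-y and 95.4 TPM for miR-126-x, and rested on at least 1222 and 819 counts per library. All 4 entries together took at most 1.79% of the listed counts.

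Expression of ssc-miR-126-3p, the strand that represses SPRED1, was lower in TPM at 120 days than at 30 days in both breeds. The Ha libraries held 9185, 9284 and 7358 TPM and the Hb libraries 6248, 6469 and 5566 TPM. The La libraries held 7738, 6746 and 6936 TPM and the Lb libraries 4439, 6121 and 4464 TPM. In each breed the ages did not overlap in TPM, a pattern that 20.7% of the miRNAs tested in Ha vs. Hb and 14.0% of those in La vs. Lb showed in this direction. The group means ran from 8609 ± 1085 TPM (SD, n = 3) in Ha through 7140 ± 527 in La and 6094 ± 471 in Hb to 5008 ± 964 in Lb. Neighbours in this order overlapped, except La and Hb.

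Expression of ssc-miR-126-5p, the strand that represses DLK1, differed less between the groups. Its libraries held 5717, 6276 and 5124 TPM in Ha and 5006, 5440 and 5474 in Hb. The LC libraries held 5364, 4739 and 5215 TPM in La and 4090, 4876 and 4469 in Lb. The means fell in the order Ha (5706 ± 576 TPM, SD, n = 3), Hb (5307 ± 261), La (5106 ± 327) and Lb (4478 ± 393), and each group overlapped the next. The Hb libraries lay above all Lb libraries.

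**Figure D1:**
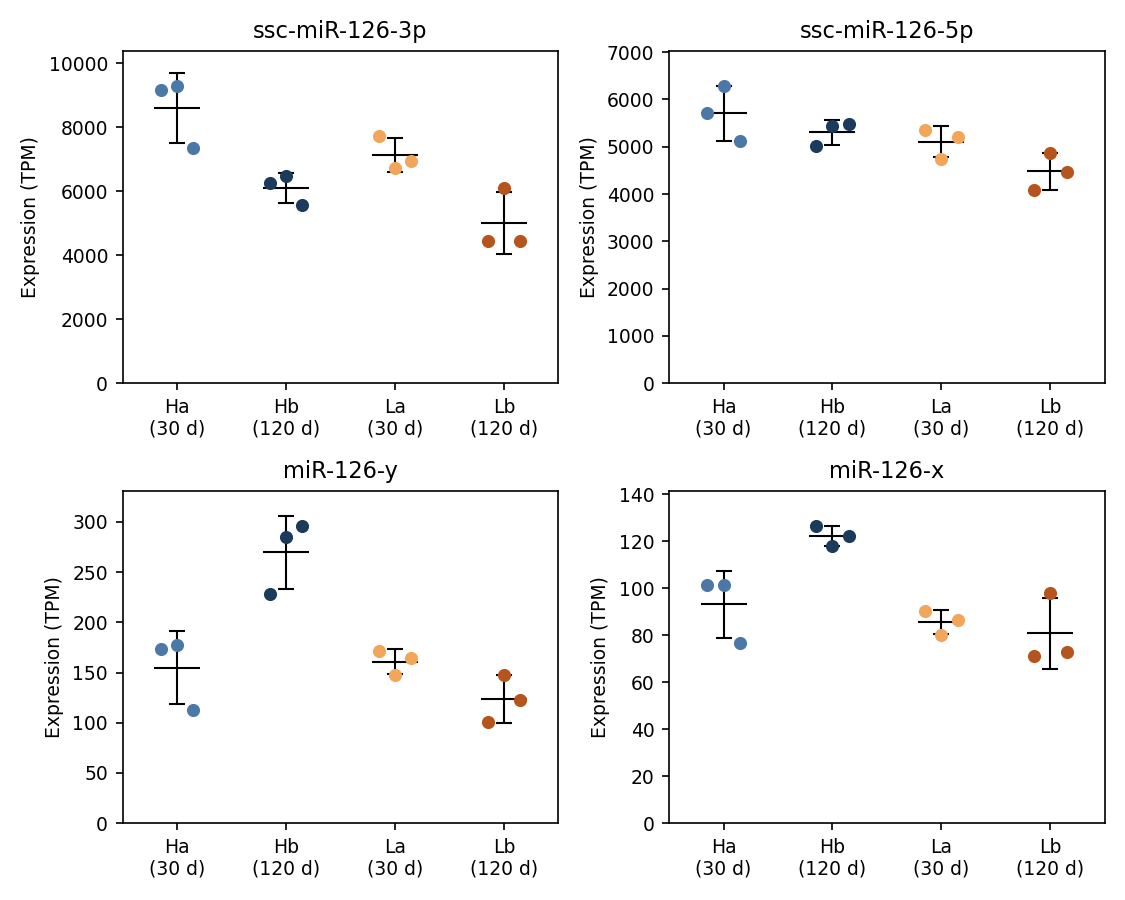
Expression (TPM, linear axis from 0) of the 4 miR-126 entries in the 12 libraries, with 3 points per group and the mean and SD in black. The 3p strand is lower at 120 days in both breeds (means of 8609 and 6094 TPM in HZ, 7140 and 5008 TPM in LC), whereas miR-126-y is highest in Hb, with a mean of 270 TPM.

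The AA-ending entry of the 3p strand, miR-126-y, followed a different course, since it was highest in HZ boars at 120 days. The Ha libraries held 174, 177 and 113 TPM, and the Hb libraries held 228, 285 and 295.7 TPM. In LC boars it was not higher at 120 days, with 171, 147 and 164 TPM in La and 101, 148 and 123 TPM in Lb. All Hb libraries lay above every other library. For miR-126-x, the AA-ending entry of the 5p strand, the Hb libraries were also the highest, at 126.3, 118 and 122 TPM. The Ha libraries ranged from 76.7 to 101 TPM, the La libraries from 80.1 to 90.5 and the Lb libraries from 71.3 to 98.0. Of the 4 entries, both AA-ending ones were thus higher in Hb than in Ha without overlap, as were 331 of the 1441 miRNAs tested, and 3 (all but the 3p strand) were lower in Lb than in Hb without overlap, as were 7.96%.

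The changes between groups were tested by edgeR's quasi-likelihood test on the raw counts, with Benjamini-Hochberg adjustment over all miRNAs tested, and calls follow the study's thresholds, a log2 fold change beyond 1 in either direction together with an unadjusted p-value under 0.05. In La vs. Lb, 3 of the 4 entries had an adjusted p-value under 0.05 and were lower in Lb, as were 13.4% of the 1446 miRNAs tested. The log2 fold change was -0.68 for ssc-miR-126-3p (standard error 0.142, adjusted p = 0.00224 in edgeR's test), -0.36 for ssc-miR-126-5p (standard error 0.114, adjusted p = 0.0227 in the same edgeR test) and -0.55 for miR-126-y (adjusted p = 0.0185 in the same edgeR test). The value of miR-126-x was -0.26 (adjusted p = 0.240 in edgeR's test). Since these folds are under 1 on the log2 scale, 0 of the 4 were called, against 32.1% of all tested. At an unadjusted p-value under 0.05 the count was 3, and the Wald test of DESeq2 also called 0. Of these 3 results, only that for the 3p strand kept an adjusted p-value under 0.05 without any 1 library, between 9.77e-06 and 0.0148 in edgeR's test. That of the 5p strand rose to 0.0629 without La replicate 1, 0.0948 without La replicate 3 and 0.0788 without Lb replicate 1, and that of miR-126-y rose to 0.0623, 0.0731 and 0.0588 without the same libraries.

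In Ha vs. Hb, the pig-named strands did not pass the test, with log2 fold changes of -0.33 for ssc-miR-126-3p (95% interval -0.89 to 0.23, adjusted p = 0.343 in edgeR's test) and 0.07 for ssc-miR-126-5p (-0.49 to 0.62, adjusted p = 0.865 in edgeR's test). Without Hb replicate 2 the value of the 3p strand was -0.61 with an adjusted p of 0.0085, and that of the 5p strand was -0.17 with an adjusted p of 0.504, both in edgeR's test. Without Hb replicate 1, by contrast, the value of the 3p strand was -0.04 (adjusted p = 0.898 in edgeR's test) and that of the 5p strand 0.39, so that the size of these changes in HZ boars depended on single libraries. The rise of miR-126-y, 0.98 on the log2 scale (standard error 0.317, adjusted p = 0.0275 in edgeR's test), lay just under the fold threshold, where the same rule called 39.6% of the 1441 miRNAs tested and 21.3% were higher in Hb with an adjusted p-value under 0.05. Of the 4 entries 0 were called, 1 had an unadjusted p-value under 0.05, and DESeq2 called 1, miR-126-y. The adjusted p-value of miR-126-y exceeded 0.05 without Ha replicate 2 (0.0592), Ha replicate 3 (0.119) or Hb replicate 3 (0.0504), and was 0.0524 with the replicate number as a block. The value for miR-126-x was 0.54 (adjusted p = 0.151 in edgeR's test), and 0.36 without Hb replicate 2 (adjusted p = 0.272 in the same test).

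Between the breeds, the entries did not differ at 30 days beyond the spread, with log2 fold changes in Ha vs. La from -0.18 for ssc-miR-126-3p (95% interval -0.40 to 0.04) to 0.14 for miR-126-y (-0.18 to 0.47). Of the 4, 0 were called, 0 had an unadjusted p-value under 0.05 and DESeq2 called 0, against 9.47% of the 1278 miRNAs tested. Without Ha replicate 3 the 3p strand was lower in La by -0.28 with an adjusted p of 0.0303 in edgeR's test. At 120 days miR-126-y was lower in Lb than in Hb by -1.53 (standard error 0.335, adjusted p = 0.0322 in edgeR's test). It was the 1 entry of the 4 called, against 16.8% of the 1444 tested (8.38% called lower in Lb), and 2.15% of these were lower with an adjusted p-value under 0.05. DESeq2 called 2, the other being miR-126-x (-1.01, adjusted p = 0.0496). The call held without any 1 library, with log2 fold changes between -1.80 and -1.13, but the adjusted p-value rose to 0.0570 without Hb replicate 2, 0.150 without Hb replicate 3 and 0.147 without Lb replicate 1. The other values in Hb vs. Lb were -0.96 for miR-126-x (adjusted p = 0.0881, and 0.0170 in the fit of all 12 libraries), -0.68 for ssc-miR-126-3p (0.239) and -0.64 for ssc-miR-126-5p (0.249), all in edgeR's test. Leaving out 1 library gave -0.87 to -0.26 for the 3p and -0.86 to -0.27 for the 5p strand, the smallest differences without Hb replicate 2.

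**Figure D2:**
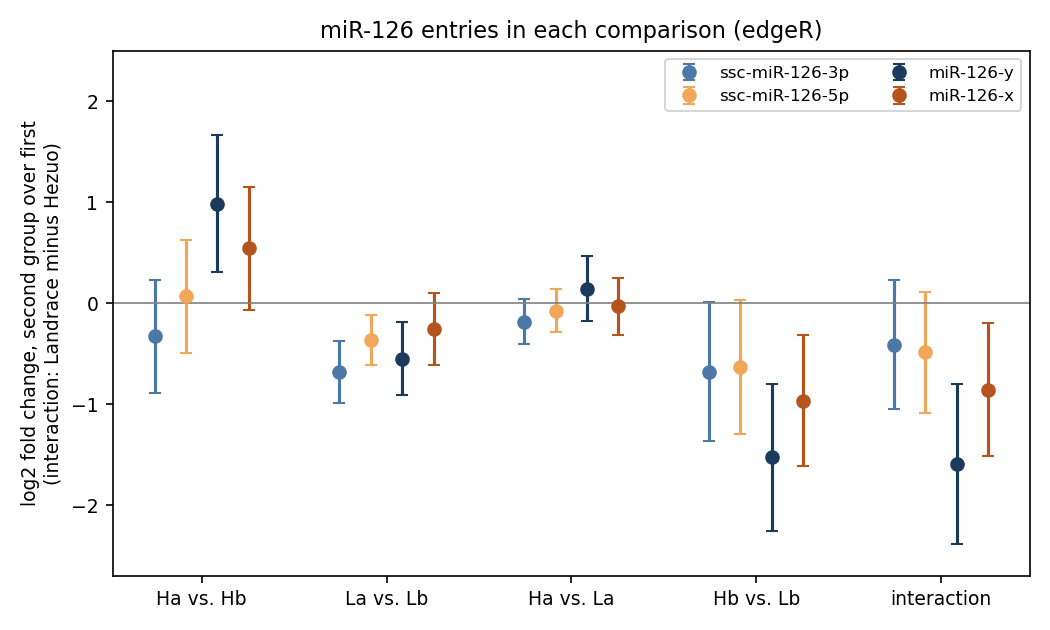
Log2 fold change of each miR-126 entry in the 4 comparisons, second group over the first, and for the interaction (the age effect in LC boars minus that in HZ boars), from edgeR with 95% intervals. The interval of miR-126-y lies above 0 in Ha vs. Hb and below 0 in both comparisons with Lb, while the 3p strand is clear of 0 in La vs. Lb (-0.99 to -0.37).

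The age effect was compared between the breeds by the interaction over all 12 libraries. For miR-126-y it differed by -1.59 on the log2 scale (95% interval -2.38 to -0.80, adjusted p = 0.0476 in edgeR's test). In the separate comparisons the age effect was 0.98 in HZ boars and -0.55 in LC boars, where La and Lb overlapped in TPM. The interaction of miR-126-y was called, as were 17.1% of the 1452 miRNAs tested (5.92% in this direction), and 0.620% were below 0 with an adjusted p-value under 0.05. The call held without any 1 library, between -1.84 and -1.24, whereas the adjusted p-value rose above 0.05 in 10 of the 12 such fits, to at most 0.136 without La replicate 3. The interaction was -0.86 for miR-126-x (adjusted p = 0.124), -0.49 for ssc-miR-126-5p (0.348) and -0.41 for ssc-miR-126-3p (0.472), all in edgeR's test. For the 3p strand the value ranged from -0.60 to -0.05 without 1 library, the latter without Hb replicate 2.

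The ratio of the 5p to the 3p strand is independent of how a library is scaled. It rose with age in both breeds. The ratio of counts was 0.622, 0.676 and 0.696 in Ha and 0.801, 0.841 and 0.983 in Hb. In LC boars it was 0.693, 0.702 and 0.752 in La and 0.921, 0.797 and 1.001 in Lb. The 3p strand thus had more counts than the 5p strand in all libraries except Lb replicate 3, where both were about equal. The groups at 30 and 120 days were apart in each breed, with a rise of 1.31-fold in HZ boars and 1.26-fold in LC boars. An exact permutation test of the log2 ratio, two-sided with ages permuted within breed, gave p = 0.005, the smallest that its 400 arrangements allow (adjusted p = 0.0225 over the 9 such tests made on ratios). Leaving out any 1 library gave p between 0.005 and 0.01 in the exact test. The breeds did not differ beyond the spread (0.08 on the log2 scale, exact permutation p = 0.28), and the difference between their age effects was -0.06 (exact permutation p = 0.665). A single comparison of 3 libraries against 3 cannot go below p = 0.1 in an exact test.

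**Figure D3:**
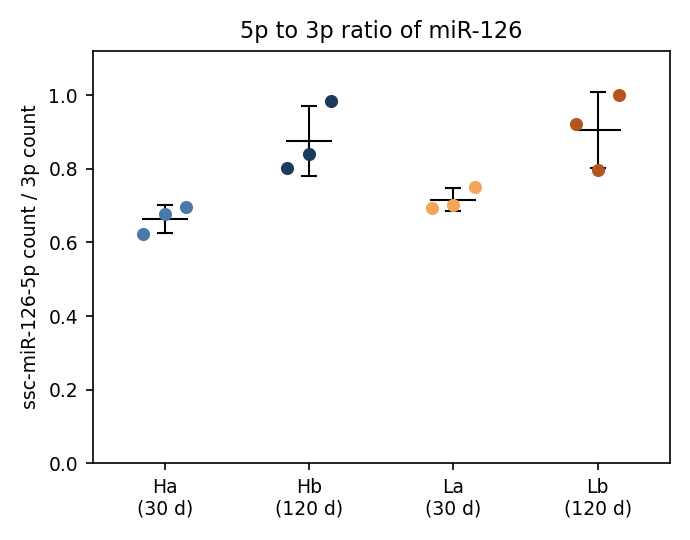
Count of ssc-miR-126-5p divided by the count of ssc-miR-126-3p in each library, by group, on a linear axis from 0, with the mean and SD in black. The libraries at 30 days lie between 0.622 and 0.752 and those at 120 days between 0.797 and 1.001.

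A higher 5p to 3p ratio at 120 days was also seen for other miRNAs. Of 45 pig-named pairs of strands with a mean of at least 10 TPM for each strand, 8 (17.8%, miR-126 among them) were higher at 120 days with the ages apart in both breeds, and 2 (4.44%) were lower. The median change over the 45 pairs was 0.23 on the log2 scale, against 0.36 for miR-126, which took place 16. The others of the 8, named after their values were seen, were ssc-miR-26b (0.87), ssc-miR-582 (0.87), ssc-miR-28 (0.53), ssc-miR-17 (0.48), ssc-miR-202 (0.48), ssc-miR-455 (0.44) and ssc-miR-22 (0.35), and the 2 lower were ssc-miR-148b (-0.66) and ssc-miR-30c (-0.96).

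The AA-ending share of each strand compares entries of the same strand within a library, and its scaling cancels as well. It depends on how tags were divided between the entries, which is known only in part, and whether the AA is encoded in the genome was not checked here. In the 3p strand, the share of miR-126-y in the sum of both entries was 1.86, 1.88 and 1.51% in Ha and 3.52, 4.22 and 5.04% in Hb. In LC boars it was 2.17, 2.14 and 2.31% in La and 2.22, 2.36 and 2.68% in Lb. The Hb libraries were above all others, Ha lay below La, and La and Lb overlapped. The 95% Wilson intervals of these shares were at most 0.402 percentage points wide, which covers counting error only, and tags without molecular identifiers are not independent molecules. The ratio of miR-126-y to ssc-miR-126-3p was 2.48-fold higher in Hb than in Ha and 1.10-fold higher in Lb than in La. The age effect over both breeds had an exact permutation p of 0.01 (adjusted p = 0.03), and the age effects differed between the breeds by -1.18 on the log2 scale (exact permutation p = 0.005 with breeds permuted within age, the smallest possible, adjusted p = 0.0225). Without any 1 library that difference ranged from -1.32 to -1.05, with an exact p of 0.005 each time.

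In the 5p strand, the share of miR-126-x was 1.74, 1.59 and 1.47% in Ha against 2.46, 2.12 and 2.18% in Hb. The La libraries had 1.66, 1.66 and 1.63%, and the Lb libraries 1.71, 1.97 and 1.61%. The Hb libraries were again the highest. The ratio of miR-126-x to ssc-miR-126-5p was 1.42-fold higher in Hb than in Ha. The exact permutation p was 0.025 for age and 0.035 for the difference between the breeds in the age effect. After adjustment both missed the threshold (0.0563 and 0.063). The breed effect over both ages did not pass (exact permutation p = 0.13). These shares were chosen for report after the values had been seen.

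**Figure D4:**
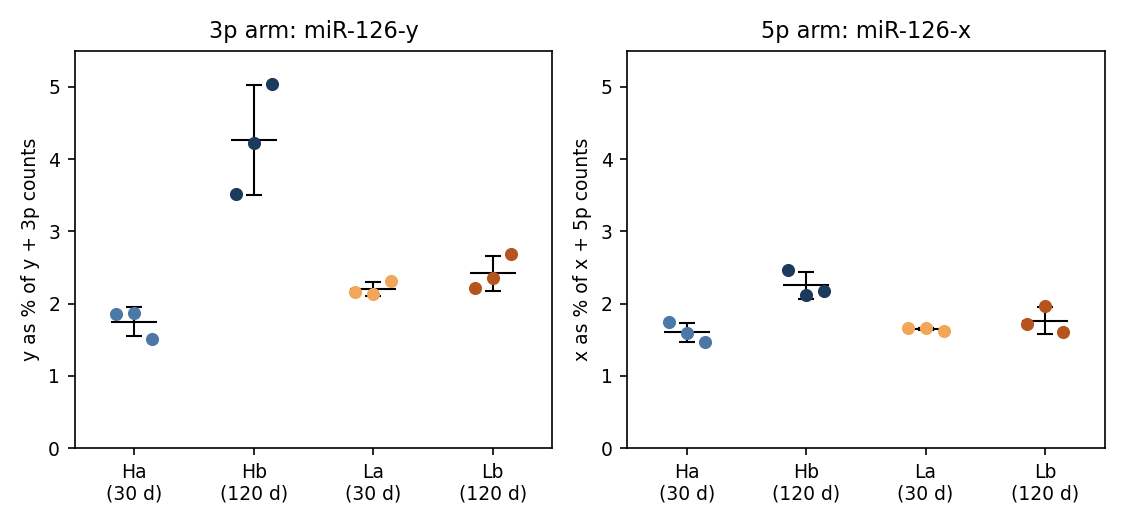
Share of the AA-ending entry in the counts of its strand, in percent, for the 3p strand (miR-126-y, left) and the 5p strand (miR-126-x, right), with 3 libraries per group and the mean and SD in black. In Hb the 3p share is 3.52 to 5.04%, against 1.51 to 2.68% in the other groups.

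The ratio was compared with that of other miRNAs over 60 pairs, miR-126 included, in which an entry without a species name extended a pig-named entry or all of it but the last letter, with at least 10 TPM on average for both. The ratio of longer to pig-named entry was higher in Hb than in Ha with the groups apart in 11 pairs (18.3%). It was in addition lower in Lb than in Hb, again with the groups apart, in 5 of these (8.33% of the 60), namely miR-126-y, miR-126-x, miR-15-x, miR-143-x and miR-146-x. More pairs were lower in Hb than in Ha with the groups apart than were higher. Over the 60 pairs the median change from Ha to Hb was -0.14 on the log2 scale, against 1.31 for miR-126-y, the 3rd highest, and 0.50 for miR-126-x, the 10th. Of the 17 pairs whose longer entry ended in AA, 4 (23.5%) were higher in Hb with the groups apart. These were miR-126-y and miR-126-x themselves, miR-195-x and miR-128-y.

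The miRNAs whose expression was most like that of miR-126 were found by Pearson's r between log2(TPM + 1) values, with 12 libraries as points, among 433 others with a mean of at least 10 TPM. The libraries share their group structure and scaling, and the correlations are given as a description only. For ssc-miR-126-3p they were ssc-miR-10a-5p (r = 0.865), ssc-miR-27b-3p (0.848), miR-590-y (0.834), ssc-miR-423-5p (0.833) and miR-10174-x (0.778). The mean of ssc-miR-27b-3p was 57892 ± 3718 TPM (SD, n = 3) in Ha and 53136 ± 1808 in La at 30 days, and 43186 ± 431 in Hb and 31588 ± 2547 in Lb at 120 days, the same order of groups as for the 3p strand. For ssc-miR-126-5p they were ssc-miR-23b (0.755), miR-24-y (0.710), ssc-miR-27b-3p (0.700), miR-590-y (0.692) and miR-26-x (0.690). The strands of miR-126 correlated with each other at 0.838.

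Other miRNAs known from endothelial cells or from the growth of blood vessels were described as a list of 24 names with 35 pig-named entries, of which ssc-miR-218 and ssc-miR-218-5p hold the same sequence and counts, leaving 34 distinct sequences. In Ha vs. Hb, 1 was called higher and 6 lower in Hb, and the median log2 fold change was -0.48 (-0.51 over the 34 distinct sequences), against 0.32 over all 1441 miRNAs. Without Hb replicate 2, 1 was called higher and 4 lower, since ssc-miR-222 (-0.97) and ssc-miR-92a (-0.96) came under the fold threshold, both with adjusted p-values still under 0.05 in edgeR's test. In La vs. Lb, 1 was called higher and 5 lower, with a median of -0.28 against 0.32. Over all miRNAs, 25.1% were called higher and 14.4% lower in Ha vs. Hb, and 26.3% and 5.81% in La vs. Lb. The members of the list did not move as 1 group. The antiangiogenic ssc-miR-222 fell with age in each breed, by log2 changes of -1.26 in HZ and -1.12 in LC boars (adjusted p = 0.0492 and 0.00425 in edgeR's test). So did ssc-miR-19a and ssc-miR-92a from a cluster known for roles in vessel growth, by -1.23 and -1.37 and by -1.16 and -1.26. The expression of ssc-miR-10a-5p fell by -1.50 and -1.13, and ssc-miR-10a-3p fell by -2.16 in HZ boars. The latter was low, at 5.09 ± 2.22 TPM (SD, n = 3) in Ha and 1.03 ± 0.227 in Hb. Its value of -0.85 in LC boars did not pass (adjusted p = 0.247 in edgeR's test). A fall of ssc-miR-19b passed in LC boars (-1.29). The endothelial activator ssc-miR-132 rose, by 1.55 in HZ boars and 1.40 in LC boars.

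Among the 4 most abundant entries of that list, ssc-let-7f-5p was lower at 120 days in both breeds (-0.87 and -0.71, adjusted p = 0.00538 and 0.000108 in edgeR's test), and ssc-miR-27b-3p was lower in LC boars (-0.93) with a value of -0.26 in HZ boars. The values of ssc-miR-10b were 0.04 and -0.36, neither past the test. For ssc-miR-24-3p they were 0.67 in HZ boars, which did not pass, and -0.53 in LC boars, which did, and its fall of -1.30 was the 1 call of the list in Hb vs. Lb (adjusted p = 0.0788 in edgeR's test), where 8.38% of all tested were called lower. The number of calls of the list in that comparison was 0 without Hb replicate 2, 6 without Hb replicate 1, 2 without Hb replicate 3 and 3 without Lb replicate 2, while the number over all miRNAs, 243 in the full comparison, was 185, 305, 208 and 224. In Ha vs. La, 0 of the 35 entries were called, against 9.47% of all tested, 10 had an unadjusted p-value under 0.05 and DESeq2 called 0. Under the fold threshold, 6 were higher and 1 lower in La with an adjusted p-value under 0.05, against 5.01% and 6.34% of all tested. The 4 with the largest differences were ssc-miR-210 (0.68), ssc-miR-221-3p (0.65) and ssc-miR-222 (0.57), which were higher in La, and ssc-miR-378 (-0.90), which was lower.

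**Figure D5:**
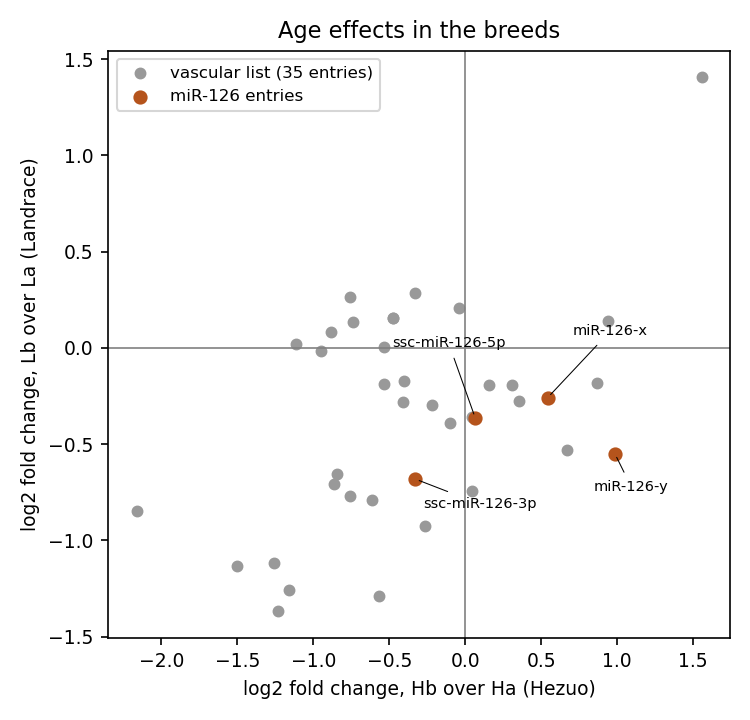
Log2 fold change from 30 to 120 days in HZ boars (horizontal) and LC boars (vertical) for the 35 entries of the vascular list (grey) and the 4 miR-126 entries (brown). The axes share no libraries, and miR-126-y lies at 0.98 and -0.55, apart from the 3p strand at -0.33 and -0.68.

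Summed levels of marker miRNAs of other cell types, which were not tested, differed between the groups to varying degrees. The summed level of miR-143 and miR-145, typical of smooth muscle and pericytes (2 of 2 names, 4 entries), was 19205 to 32819 TPM in Ha against 52400 to 85652 in Hb, and 18491 to 24213 in La against 49062 to 58260 in Lb. Of 5 names fixed for meiotic and haploid germ cells, 1 had a pig-named entry, ssc-miR-34c, at 18.98 to 62.0 TPM in Ha, and 12.5 to 20.2 in La against 9330 to 11634 in Lb. In Hb it was at 1218, 1732 and 11014 TPM in replicates 1, 2 and 3, so that replicate 3 alone lay in the range of Lb. The leukocyte markers (4 of 4 names) summed to 1059 to 1102 TPM in Ha against 422 to 865 in Hb, and 1326 to 1455 in La against 746 to 1166 in Lb. Those of red blood cells (3 of 3 names) summed to 1284 to 1673, 829 to 2228, 2085 to 2348 and 1152 to 1192 TPM in the same order. Striated muscle markers (4 of 4 names) summed to 129 to 278, 434 to 723, 106 to 199 and 677 to 819 TPM, and epithelial markers (3 of 5 names) to 78.4 to 93.7, 28.2 to 99.8, 61.6 to 88.4 and 53.2 to 150.3 TPM. Between the ages the smooth muscle, germ cell and striated muscle sums did not overlap and were higher at 120 days in both breeds, the leukocyte sums did not overlap and were lower, the red blood cell sums overlapped in HZ boars and were lower at 120 days in LC boars, and the epithelial sums overlapped in both breeds. In HZ boars both overlaps rested on Hb replicate 1 (2228 and 99.8 TPM), since the other Hb libraries lay below Ha, at 1000 and 829 TPM for red blood cells and 28.2 and 31.3 TPM for epithelium. Not all members went the way of their sum. In the leukocyte list, which ssc-miR-142-5p dominated, ssc-miR-223 had a mean of 10.4 TPM in La and 16.5 in Lb, and ssc-miR-155-3p one of 0.282 and 0.312. In the last lists the mean of ssc-miR-141 was higher at 120 days in both breeds (8.66 and 19.8 TPM in HZ, 4.27 and 22.5 in LC boars) beside the more abundant ssc-miR-200b, and that of ssc-miR-486 was higher in LC boars (103 and 148 TPM) while that of ssc-miR-144 was lower (1171 and 453). The mean of ssc-miR-451 was higher in HZ boars (456 and 632 TPM) and lower in LC boars (906 and 567). That of ssc-miR-429 was lower in HZ boars (3.69 and 1.87 TPM) and higher in LC boars (2.22 and 4.98). The part of these cell types in the changes of miR-126 was not tested. TPM is a share of a library, so in whole testis a smaller share of endothelial cells and less miR-126 per cell cannot be told apart.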

How the data were processed

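The authors trimmed the reads with fastp, removed tags of other non-coding RNAs and of exons, introns and repeats of Sscrofa11.1, searched the remaining tags against miRBase (bowtie) and counted known miRNAs with miRDeep2. They deposited raw tag counts of each listed miRNA per library, and TPM, in which the count is divided by a library total and 0 is written as 0.01. The table of predicted hairpins was not used here.

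Counts were tested with edgeR 4.0.16 in R 4.3.3 (glmQLFit and glmQLFTest, TMM, at least 1 count in the libraries compared), separately for each comparison, and over all 12 libraries for the interaction. Intervals came from the test's standard error and degrees of freedom. Ratios were tested by exact permutation. Alternatives were RLE, scaling by library size, filterByExpr, robust estimation, edgeR's exact test, DESeq2 1.42.0, all 12 libraries in 1 fit, the replicate number as a block, mean TPM and leaving out each library. Named miRNAs were all entries of miR-126, the 5 most correlated with each pig-named strand, and, of the vascular list, the 4 most abundant and up to 4 with the largest change per comparison. The longer-entry shares, the comparison with other pairs and the interactions of ratios were added after seeing the data. The members and lists were chosen with earlier results of these data known.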

Additional observations from a re-analysis of the deposited data

Results flagged for a closer look

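The age effect of miR-126-y differed between the breeds, by -1.59 on the log2 scale in the interaction over 12 libraries (edgeR's quasi-likelihood test). The AA-ending share of the 3p strand, which does not depend on library scaling, differed by -1.18 in log2 ratio. Since miR-126-y is its numerator and it was chosen after the values had been seen, it is another view of the same counts and no independent support.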

How the results depend on the processing

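Of 434 alternative values computed for miR-126, 393 kept their direction and their call (for permutation tests, their side of p = 0.05) or, for fold changes from mean TPM, stayed within the replicate SD. Adjusted p-values moved more, and lay on the other side of 0.05 in 39 of the fits. The cause of these shifts was not tested. Scaling by library size turned the interaction of ssc-miR-126-3p to 0.0116 and the change of ssc-miR-126-5p in Ha vs. Hb to -0.0945, neither past the test. The rise of miR-126-y in Ha vs. Hb passed the fold threshold with RLE (1.06), DESeq2 (1.06) and filterByExpr (1.05), and the fall of miR-126-x in Hb vs. Lb did so with the same settings (each -1.01). Adjusted p-values of miR-126-y over all alternatives ranged from 0.000871 to 0.119 in Ha vs. Hb, from 0.000844 to 0.0912 in La vs. Lb, from 0.000355 to 0.150 in Hb vs. Lb and from 0.00197 to 0.136 for the interaction. Those of the strands in La vs. Lb ranged from 1.08e-08 to 0.0155 (3p) and from 0.00187 to 0.240 (5p, the highest with scaling by library size).

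Fold changes from mean TPM moved ssc-miR-126-3p to -0.50 in Ha vs. Hb, -0.28 in Hb vs. Lb and -0.0133 for the interaction. They moved ssc-miR-126-5p to -0.10 in Ha vs. Hb, -0.24 in Hb vs. Lb, -0.19 in La vs. Lb and -0.0846 for the interaction. They moved miR-126-y to -1.12 and miR-126-x to -0.59 in Hb vs. Lb, with interactions of -1.17 and -0.47.

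Leaving out each library in turn gave -0.17 to 0.39 for ssc-miR-126-5p in Ha vs. Hb, the lowest without Hb replicate 2. The ranges of miR-126-y were 0.72 to 1.36 in Ha vs. Hb and -0.0337 to 0.25 in Ha vs. La, the lowest of the latter without Ha replicate 3. The former was called without Ha replicate 1, Ha replicate 2 or Hb replicate 1. Those of miR-126-x were -0.15 to 0.0285 in Ha vs. La, -1.14 to -0.65 in Hb vs. Lb and -1.04 to -0.59 for the interaction. It passed both thresholds in Hb vs. Lb and in the interaction without Hb replicate 1 or Lb replicate 2. Its adjusted p-value fell under 0.05 without Hb replicate 1 in Ha vs. Hb (0.0253), Hb vs. Lb (0.0244) and the interaction (0.0320), and without Lb replicate 2 in La vs. Lb (0.00695). The difference between the breeds in the age effect on the 5p to 3p ratio ranged from -0.13 to 0.0325. For the AA-ending share of the 5p strand, the ranges were 0.26 to 0.33 for age, -0.20 to -0.13 for breed and -0.49 to -0.34 for their interaction.

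Replicate numbers did not pair the libraries, since 4 of 18 same-numbered pairs correlated above 0.1. With the replicate number as a block, the AA-ending share of the 5p strand kept its age effect of 0.30 but p was 0.0625 (exact permutation), and miR-126-y was 0.95 in Ha vs. Hb. No other call on miR-126 entries changed. With filterByExpr the number of miRNAs called was 352 against 570 in Ha vs. Hb, 257 against 464 in La vs. Lb, 62 against 121 in Ha vs. La and 145 against 243 in Hb vs. Lb. Of the 5 miRNAs most like the 3p strand, 3 were shared with Spearman's rho, and of those most like the 5p strand, 3 were shared with a minimum of 1 TPM. Every entry had at least 819 counts per library. For miR-126-x counting error can be as large as the spread between libraries. Its share in La had an SD of 0.0189 percentage points, while the Wilson interval of La replicate 1 ran from 1.56 to 1.76%.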
